A study of Homo sapiens with 2 samples.

Results

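Ubiquitin-conjugating enzymes were taken as the protein-coding RefSeq (NM) records whose gene symbol begins with UBE2, which gave 33 members of 23709 records in the table. The data are from Caco-2, a human colorectal adenocarcinoma cell line that can form layers resembling intestinal epithelium. Polyadenylated RNA was sequenced in 2 libraries, with no treatment or genetic change named in the labels. The RNC-mRNA library holds RNA that came down with ribosome-nascent chain complexes, the ribosomes still carrying a growing protein, and the mRNA library holds that of total RNA. The comparison addresses how the mRNAs found on ribosomes differ in amount from those in the whole cell. Each group is 1 library, so every difference is between these libraries alone, with no replicates behind it. The labels leave unsaid whether both preparations came from the same culture. Both are bulk preparations, in which fewer cells with an mRNA and less of that mRNA per cell cannot be told apart.

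Ubiquitin is attached to proteins by a relay. An activating enzyme (E1) loads it onto the active-site cysteine of a conjugating enzyme (E2), and the E2 works with a ligase (E3) that chooses the substrate. The E2 largely sets which kind of ubiquitin chain is built, and with it whether a substrate is sent to the proteasome or marked for signalling or repair. Some E2s carry ubiquitin-like proteins instead, among them NEDD8 and ISG15. In proliferating epithelial cells E2s take part in mitotic exit, in quality control of secreted and membrane proteins and in DNA repair.

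Levels are given as deposited, in RPKM, a read number divided by transcript length and library total, so genes can be set side by side. The relative ratio is log2 of the RNC-mRNA RPKM over the mRNA RPKM, each plus 0.1, minus the median of that value over the 13402 records with a mean RPKM of at least 1 (called expressed). A relative ratio of 0 is thus the ratio of the median expressed record. Its interval is an exact Clopper-Pearson 95% interval from the fewest reads that explain both RPKM values, and it covers counting error only. The RNC-mRNA library held 11083302 reads and the mRNA library 9640364 reads, both worked out from the RPKM values. Of 8 intestinal epithelium markers, 7 were at 1 RPKM or more in each library, summing to 3539 RPKM in the RNC-mRNA library and 3363 RPKM in the mRNA library. The exception was KRT20, with 0.0500 RPKM in the RNC-mRNA library and 0.977 RPKM in the mRNA library. All 4 fibroblast markers were also at 1 RPKM or more, with sums of 34.7 RPKM in the RNC-mRNA library and 56.6 RPKM in the mRNA library. Leukocyte markers summed to 4.11 and endothelial markers to 2.04 RPKM in the RNC-mRNA library, against 4.21 and 4.76 RPKM in the mRNA library. The part of these markers in the ratios below was not tested.

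Most E2s carry a histidine-proline-asparagine motif a short way before the catalytic cysteine. The coding stretch that starts at this motif and ends at the cysteine was found in 22 of the 30 expressed members, counting a cysteine codon at the motif's second position as well. It is shown for genes whose relative ratios are compared below, to show how alike their active sites are. The bases are coding strand, 5′ to 3′, from the principal transcript of GENCODE release 29 on GRCh38, and capitals mark the catalytic cysteine codon.
UBE2D1: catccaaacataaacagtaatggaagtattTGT
UBE2D2: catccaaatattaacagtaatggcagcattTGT
UBE2D3: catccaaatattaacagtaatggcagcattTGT
UBE2A: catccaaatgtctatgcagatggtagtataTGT
UBE2B: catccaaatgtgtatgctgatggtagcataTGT
UBE2G1: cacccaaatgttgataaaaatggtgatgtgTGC
UBE2G2: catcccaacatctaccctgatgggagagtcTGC
UBE2L3: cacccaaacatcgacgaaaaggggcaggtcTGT
UBE2L6: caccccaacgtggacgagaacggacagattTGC
UBE2S: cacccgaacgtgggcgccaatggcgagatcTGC
UBE2C: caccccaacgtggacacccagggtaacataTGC
All are coding exon sequence. The UBE2D1 window lies at chr10:58364795-58364827 on the plus strand, UBE2D2 at chr5:139614885-139614917 on the plus strand and UBE2D3 at chr4:102801503-102801535 on the minus strand. UBE2L3 lies at chr22:21610959-21610991 on the plus strand, UBE2L6 at chr11:57554489-57554521 on the minus strand, UBE2S at chr19:55404345-55404377 on the minus strand and UBE2C at chr20:45815634-45815666 on the plus strand. The windows of UBE2A, UBE2B, UBE2G1 and UBE2G2 are each split by an intron. UBE2D2 and UBE2D3 were identical over all 33 bases and each shared 29 with UBE2D1. UBE2A and UBE2B shared 30 of 33 bases, UBE2L3 and UBE2L6 24, and UBE2G1 and UBE2G2 17. The 3 UBE2E genes had a cysteine codon (tgt or tgc) in place of the proline codon of the motif. No such window was found in UBE2J1, UBE2J2, UBE2O, UBE2Q1, UBE2Q2, UBE2V2, UBE2W or UBE2Z.

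The members leaned toward the ribosome-bound library. Of the 33 members, 30 were expressed, and 24 of these 30 (80.0%) had a relative ratio above 0, against 52.6% of all 11940 expressed NM records. Their median relative ratio was 0.32, against 0.03 for all expressed NM records. The highest was UBE2D1 at 0.85 and the lowest UBE2L6 at -0.38. None was 2-fold or more above the median expressed record, where 1.33% of expressed NM records were, and none was 2-fold or more below it, where 8.88% were. At 1.5-fold, 5 members (UBE2D1, UBE2A, UBE2J1, UBE2E2 and UBE2S) were above, where the share of expressed NM records was 7.72%, and 0 were below, where it was 16.5%. The counting interval lay wholly above 0 for 20 members, against 31.6% of expressed NM records, and wholly below 0 for 4 members, against 28.3%. It spanned 0 for the remaining 6.

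The members' relative ratios spanned an interquartile range of 0.26 on the log2 scale, against 0.64 over all expressed NM records. Since levels differ between the sets, the members were also set beside the 2926 expressed NM records with a mean RPKM within the members' middle range, 15.0 to 42.8. This range lies between the quartiles of the members' levels. The members' own values still include members outside it, such as UBE2S and UBE2W, so the match by level is partial. The 2926 records had a median relative ratio of 0.11, an interquartile range of 0.51 and 62.2% above 0. Of these 2926 records, 30 were 2-fold or more above the median expressed record and 78 were 2-fold or more below it. At 1.5-fold, 229 were above and 221 below. Their counting interval lay wholly above 0 for 1250 and wholly below 0 for 692. The members rest on a median of at least 680.5 reads in the RNC-mRNA library and 446 in the mRNA library.

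**Figure D1:**
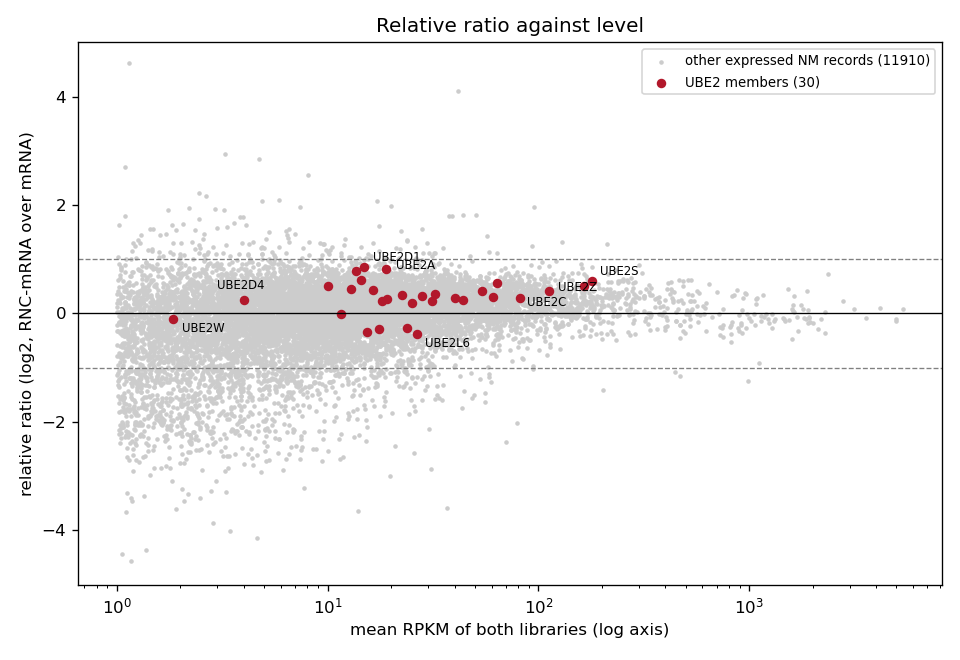
Relative ratio (log2, vertical axis) against mean RPKM of both libraries (log axis) for the 30 expressed UBE2 members in red and the other expressed NM records in grey. Dashed lines mark 2-fold above and below the median expressed record, and every red point lies between them.

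In summed level the members reached 1318 RPKM in the RNC-mRNA library and 1040 RPKM in the mRNA library, a ratio of 1.27. The sum was uneven between members. UBE2S and UBE2C together made up 30.7% of it in the RNC-mRNA library and 27.3% in the mRNA library. With UBE2Z and UBE2M added, the share was 47.1% in the RNC-mRNA library and 43.8% in the mRNA library. The order of the members by level was much the same in both libraries (Spearman's rho 0.93 and Pearson's r 0.98 of log2 levels over 30 members, which share both libraries). UBE2S, UBE2C, UBE2Z and UBE2M held ranks 1 to 4 in both.

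**Figure D2:**
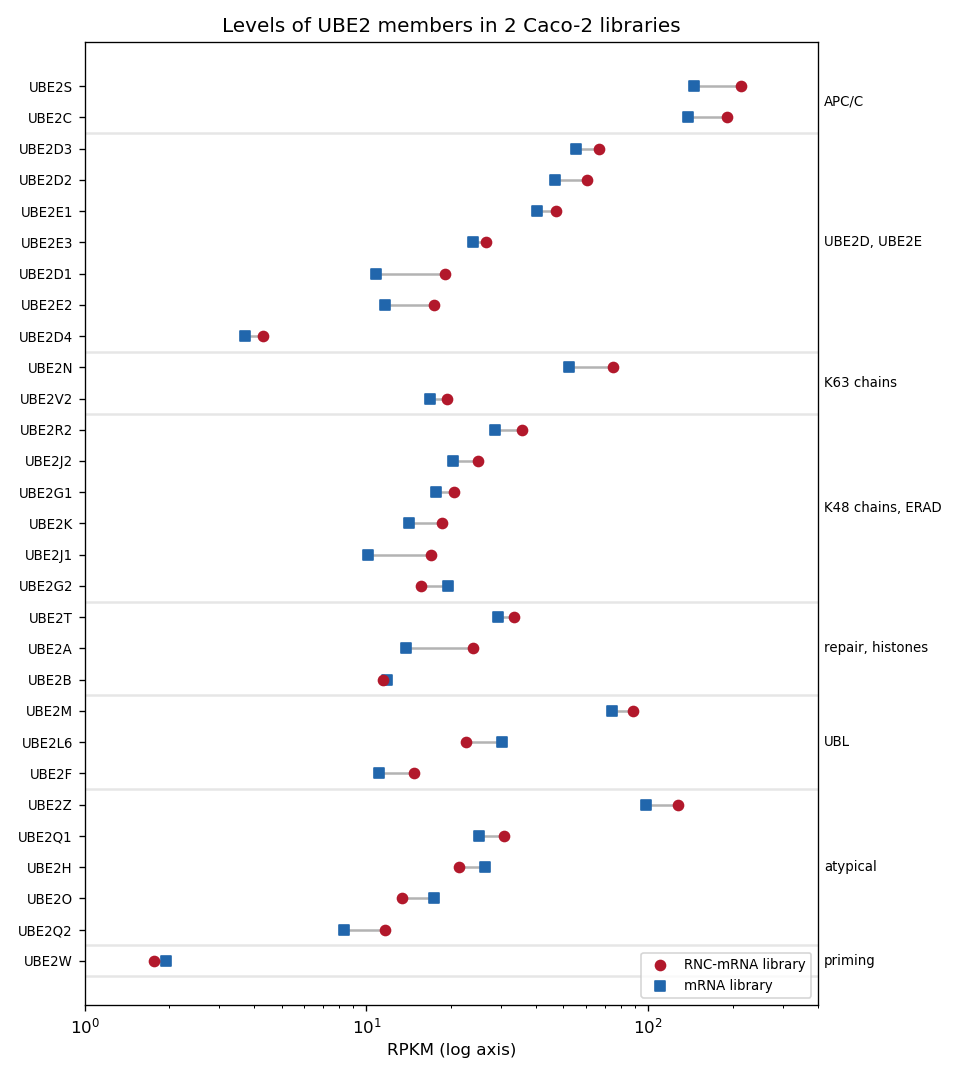
RPKM (log axis) of 29 of the 30 expressed UBE2 members in the RNC-mRNA library (red circles) and the mRNA library (blue squares), 1 library each, grouped by role as named at the right (ERAD, endoplasmic reticulum-associated degradation; UBL, ubiquitin-like modifiers). UBE2S and UBE2C are the most abundant in both libraries, and the circle lies left of the square in 6 members.

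The E2s of the anaphase-promoting complex, the ligase that ends mitosis by marking cyclins and securin for destruction, were the most abundant members. UBE2S, which lengthens the chains on the complex's substrates, had 214 RPKM in the RNC-mRNA library and 145 RPKM in the mRNA library. That is a relative ratio of 0.60 (interval 0.51 to 0.68), on at least 2822 reads in the RNC-mRNA library and 1668 in the mRNA library. UBE2C, which places the first ubiquitins, had 191 RPKM in the RNC-mRNA library and 138 RPKM in the mRNA library, a relative ratio of 0.50 (0.39 to 0.62). Both were higher in the RNC-mRNA library beyond counting error, and their intervals overlap. Of the 32-base stretches of the UBE2S transcript, 17.1% also occur in the annotated pseudogene UBE2SP1, which is not analysed here. The UBE2S value is therefore uncertain.

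The UBE2D and UBE2E enzymes serve many RING and HECT ligases and often start a chain. All 7 had a relative ratio above 0, with a median of 0.31. The interval lay above 0 in 5 of them, against 31.6% of all expressed NM records. UBE2D1 had 19.1 RPKM in the RNC-mRNA library and 10.8 RPKM in the mRNA library, a relative ratio of 0.85 (0.64 to 1.07). UBE2D2 had 60.7 RPKM in the RNC-mRNA library and 46.8 RPKM in the mRNA library, at 0.41 (0.31 to 0.51). UBE2D3 had 66.8 RPKM in the RNC-mRNA library and 55.4 RPKM in the mRNA library, at 0.31 (0.21 to 0.41). UBE2D1 was thus the scarcest of these 3 relatives and the most shifted toward the ribosome-bound library, while the intervals of UBE2D2 and UBE2D3 overlap. UBE2D4, the least abundant of the 4, had 4.28 RPKM in the RNC-mRNA library and 3.70 RPKM in the mRNA library, at 0.24 (-0.07 to 0.57). Of its 32-base stretches, 17.4% also occur in other genes of the table, mainly POLR2J4 (14.5%), an NR record at 15.3 RPKM in the RNC-mRNA library and 14.3 RPKM in the mRNA library, so the UBE2D4 value is uncertain.

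Among the UBE2E enzymes, which carry an extension before the catalytic core, UBE2E2 had 17.3 RPKM in the RNC-mRNA library and 11.6 RPKM in the mRNA library. Its relative ratio of 0.61 (0.36 to 0.88) was the fourth highest of the members. UBE2E1 had 47.0 RPKM in the RNC-mRNA library and 40.4 RPKM in the mRNA library, at 0.26 (0.11 to 0.40). UBE2E3 had 26.5 RPKM in the RNC-mRNA library and 23.8 RPKM in the mRNA library, at 0.20 (-0.01 to 0.40). This value is uncertain too, with 16.9% of its stretches shared with an annotated pseudogene that is not analysed here. The 3 intervals overlap, and the differences between these enzymes were not tested.

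UBE2N builds Lys63-linked chains, used in NF-kappaB signalling and DNA damage tolerance, together with the catalytically inactive partners UBE2V1 and UBE2V2. It had 75.1 RPKM in the RNC-mRNA library and 52.4 RPKM in the mRNA library, a relative ratio of 0.56 (0.41 to 0.70). This value is uncertain, because 47.1% of the 32-base stretches of the UBE2N transcript also occur in NUDT4, a neighbouring gene on the opposite strand of chromosome 12 that encodes a phosphohydrolase. NUDT4 had 22.1 RPKM in the RNC-mRNA library and 13.9 RPKM in the mRNA library, at 0.70 (0.56 to 0.84), and no strand-preserving step is named in the labels. UBE2V2 had 19.4 RPKM in the RNC-mRNA library and 16.9 RPKM in the mRNA library, at 0.23 (-0.01 to 0.48).

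UBE2V1 stands outside the rule, since the table pairs it with a non-coding (NR) record. It had 7.31 RPKM in the RNC-mRNA library and 4.52 RPKM in the mRNA library, at 0.72 (0.39 to 1.07). Of its 32-base stretches, 81.3% occur in the read-through record TMEM189-UBE2V1, which joins UBE2V1 to the gene before it. That record had 206 RPKM in the RNC-mRNA library and 158 RPKM in the mRNA library, at 0.42 (0.37 to 0.48). The level of UBE2V1 mRNA itself is therefore uncertain, while the relative ratios of both records lay above 0 beyond counting error.

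The E2s that build Lys48-linked chains, the main signal for the proteasome, include those of endoplasmic reticulum-associated degradation, which removes misfolded secretory proteins. Of the 6 members in this group, 5 had an interval above 0 and 1, UBE2G2, had an interval below 0. Among all expressed NM records the shares were 31.6% and 28.3%. UBE2J1, an E2 anchored in the endoplasmic reticulum membrane, had 17.0 RPKM in the RNC-mRNA library and 10.1 RPKM in the mRNA library. Its relative ratio of 0.78 (0.61 to 0.96) was the third highest of the members. UBE2J2, its relative in the same membrane, had 24.9 RPKM in the RNC-mRNA library and 20.3 RPKM in the mRNA library, at 0.33 (0.16 to 0.51). UBE2G2, which works with membrane ligases of this pathway, had 15.6 RPKM in the RNC-mRNA library and 19.5 RPKM in the mRNA library, at -0.28 (-0.44 to -0.12). The E2s of the pathway therefore lay on both sides of the median expressed record.

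UBE2G1, which extends chains on substrates of cullin ligases, had 20.5 RPKM in the RNC-mRNA library and 17.6 RPKM in the mRNA library, at 0.26 (0.12 to 0.40). UBE2R2, a relative of CDC34 that serves the same ligases, had 35.8 RPKM in the RNC-mRNA library and 28.5 RPKM in the mRNA library, at 0.36 (0.26 to 0.47). UBE2K, which makes Lys48 chains with its own ubiquitin-binding domain, had 18.6 RPKM in the RNC-mRNA library and 14.1 RPKM in the mRNA library, at 0.43 (0.29 to 0.57). The interval of UBE2R2 overlaps those of both others, and the order of these enzymes by ratio was not tested.

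UBE2A and UBE2B are the human counterparts of yeast RAD6, which ubiquitinates histone H2B and PCNA. UBE2A had 23.9 RPKM in the RNC-mRNA library and 13.9 RPKM in the mRNA library, a relative ratio of 0.82 (0.64 to 1.02). UBE2B had 11.4 RPKM in the RNC-mRNA library and 11.8 RPKM in the mRNA library, at -0.01 (-0.24 to 0.22). The pair was thus close in level in the mRNA library and apart in the RNC-mRNA library. UBE2T, the E2 of the Fanconi anaemia pathway of crosslink repair, had 33.5 RPKM in the RNC-mRNA library and 29.4 RPKM in the mRNA library, at 0.23 (-0.01 to 0.47).

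Of the E2s for ubiquitin-like proteins, 3 lay above 0 and 1 below, each beyond counting error, against 31.6% and 28.3% of all expressed NM records. UBE2M, the main E2 for NEDD8, had 88.6 RPKM in the RNC-mRNA library and 74.2 RPKM in the mRNA library, at 0.29 (0.13 to 0.46). UBE2F, the other NEDD8 enzyme, had 14.8 RPKM in the RNC-mRNA library and 11.1 RPKM in the mRNA library, at 0.45 (0.21 to 0.69). Both NEDD8 enzymes share sequence with other records of the table, which makes their values uncertain. UBE2M shares 15.4% of its stretches with the pseudogene UBE2MP1, and UBE2F shares 24.3% with the read-through record UBE2F-SCLY. UBE2MP1 had 37.2 RPKM in the RNC-mRNA library and 29.9 RPKM in the mRNA library, at 0.35 (0.13 to 0.58), while UBE2F-SCLY rested on 4 reads in the RNC-mRNA library and 1 in the mRNA library.

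UBE2L6, the interferon-inducible E2 for ISG15, had the lowest relative ratio of the expressed members. It had 22.6 RPKM in the RNC-mRNA library and 30.2 RPKM in the mRNA library, at -0.38 (-0.66 to -0.10), which is 1.30-fold lower relative to the median expressed record. By level it was 16th of the members in the RNC-mRNA library and 10th in the mRNA library. ISG15 itself, the modifier that UBE2L6 carries, had 16.9 RPKM in the RNC-mRNA library and 23.1 RPKM in the mRNA library, at -0.40 (-0.76 to -0.05). UBE2L3, which serves HECT and RING-between-RING ligases and is paired with an NR record, had 53.4 RPKM in the RNC-mRNA library and 41.0 RPKM in the mRNA library, at 0.42 (0.32 to 0.52).

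The atypical E2s were divided. UBE2Z, which receives ubiquitin or FAT10 from the activating enzyme UBA6, was the third most abundant member. It had 128 RPKM in the RNC-mRNA library and 98.2 RPKM in the mRNA library, at 0.41 (0.35 to 0.48), the narrowest interval of the members, on at least 4418 reads in the RNC-mRNA library and 2959 in the mRNA library. UBE2Q1 and UBE2Q2 have long extensions before the catalytic domain. UBE2Q1 had 30.8 RPKM in the RNC-mRNA library and 25.1 RPKM in the mRNA library, at 0.33 (0.20 to 0.47). UBE2Q2 had 11.7 RPKM in the RNC-mRNA library and 8.36 RPKM in the mRNA library, at 0.51 (0.29 to 0.75).

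UBE2O and UBE2H lay on the other side. UBE2O, a large enzyme with both E2 and E3 activity, had 13.3 RPKM in the RNC-mRNA library and 17.4 RPKM in the mRNA library, at -0.34 (-0.59 to -0.10). UBE2H, an E2 with a role in red cell maturation, had 21.3 RPKM in the RNC-mRNA library and 26.3 RPKM in the mRNA library, at -0.27 (-0.38 to -0.16). UBE2W, which attaches ubiquitin to the amino terminus of substrates, was the least abundant expressed member, with 1.76 RPKM in the RNC-mRNA library and 1.95 RPKM in the mRNA library, at -0.10 (-0.43 to 0.21). The intervals of UBE2H, UBE2G2, UBE2O and UBE2L6 overlap one another, as do those of UBE2D1, UBE2A and UBE2J1 at the other end. The order within either end was not tested.

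**Figure D3:**
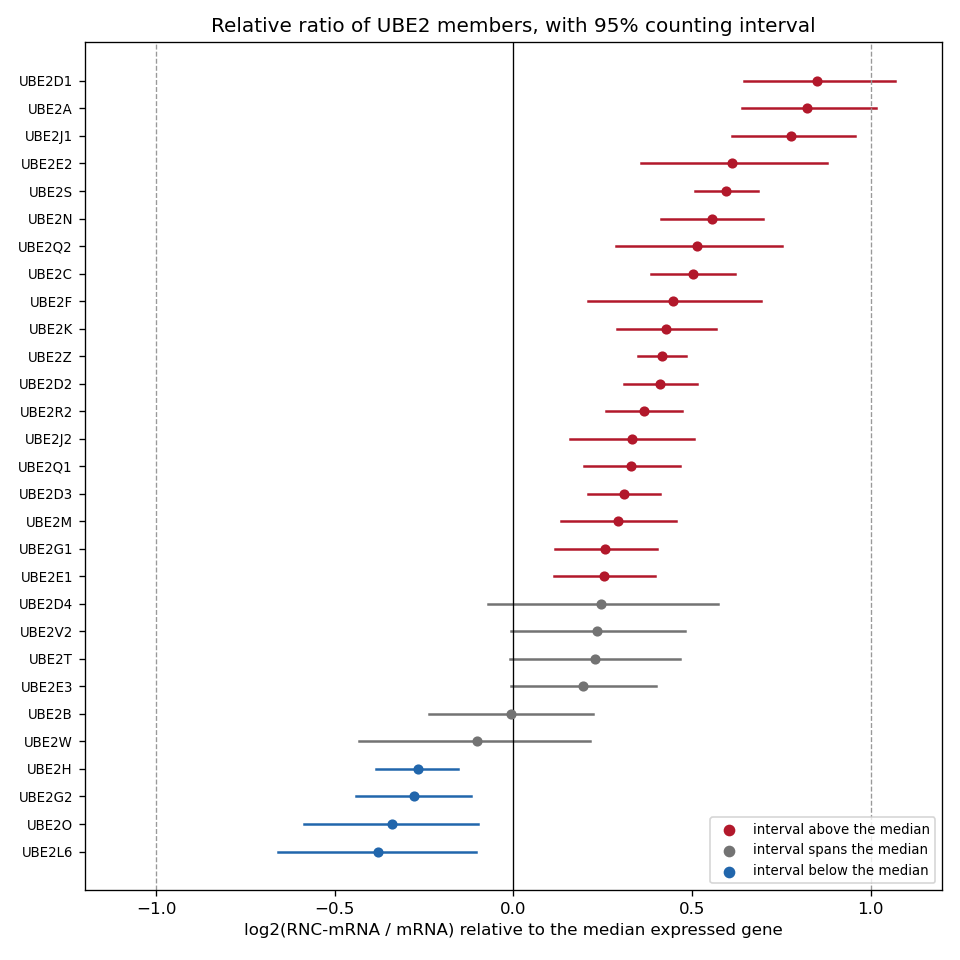
Relative ratio (log2, horizontal axis) of 29 of the 30 expressed UBE2 members with exact 95% counting intervals, ordered by ratio, 1 library per group. The interval lies above 0 for 19 of those drawn (red), spans 0 for 6 (grey) and lies below 0 for 4 (blue), and dashed lines mark 2-fold.

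The 3 other members were at or near 0. UBE2NL had 0.0761 RPKM on 1 read in the RNC-mRNA library and a listed 0 in the mRNA library, where a count of 0 (3 reads) allows up to 0.263 RPKM. UBE2QL1 and UBE2U were listed at 0 in both libraries. At the length of their reference transcripts, 3 reads would be 0.0627 RPKM for UBE2QL1 and 0.238 RPKM for UBE2U in the RNC-mRNA library, and 0.0721 and 0.274 RPKM in the mRNA library. They were not detectable at this depth.

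Close relatives were then set side by side. Of 14 pairs of related members, 6 had counting intervals of the relative ratio that do not overlap. The same held for 42.1% of all 435 pairs of expressed members and 46.3% of all pairs of expressed NM records, so this count is near the background and says nothing particular of relatives. The widest gap was between UBE2A and UBE2B, 0.83 on the log2 scale (1.78-fold), whose coding sequences are 80.5% identical. UBE2D1 stood above each of its relatives, by 0.44 over UBE2D2, 0.54 over UBE2D3 and 0.61 over UBE2D4. UBE2D2 and UBE2D3, identical in the window printed above and 83.8% identical in coding sequence, differed by 0.10, with overlapping intervals. UBE2G1 exceeded UBE2G2 by 0.54, at 54.2% coding identity, and UBE2J1 exceeded UBE2J2 by 0.45, at 44.0%.

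Records outside the rule gave further pairs. The relative ratio of UBE2L3, uncertain because of its shared sequence, exceeded that of UBE2L6 by 0.80 (1.74-fold), with intervals that do not overlap. UBE2Q2 exceeded its pseudogene UBE2Q2P1 by 2.00 (4.01-fold) and UBE2Q2P3 by 2.11 (4.32-fold), again without overlap. UBE2Q2P1 had 0.588 RPKM in the RNC-mRNA library and 1.88 RPKM in the mRNA library, at -1.49 (-2.64 to -0.73), on 14 reads in the RNC-mRNA library and 39 in the mRNA library. UBE2Q2P3 had 1.86 RPKM in the RNC-mRNA library and 6.001 RPKM in the mRNA library, at -1.60 (-3.48 to -0.09), on 5 reads in the RNC-mRNA library and 14 in the mRNA library. Of the expressed UBE2 records, NR records included, only these were past 2-fold. Both rest on few reads, and both intervals span the 2-fold limit. UBE2MP1, also a pseudogene, lay at 0.35, with an interval that overlaps that of UBE2M, the gene it resembles.

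**Figure D4:**
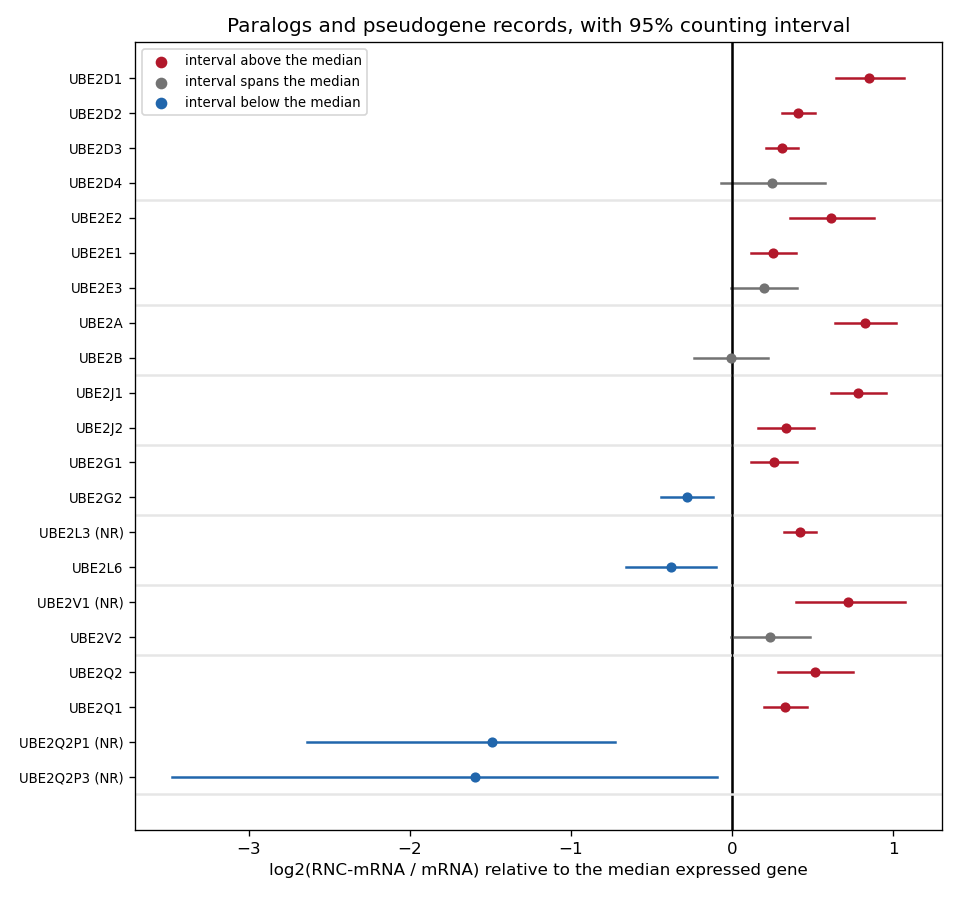
Relative ratio (log2, horizontal axis) with exact 95% counting intervals for related UBE2 genes, grouped by family between grey lines, with NR records marked. UBE2D1, UBE2A, UBE2J1, UBE2G1 and UBE2L3 lie above their relatives with no overlap. The points of the pseudogene records UBE2Q2P1 and UBE2Q2P3 lie more than 2-fold below 0, with intervals that span that limit.

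Features that the rule did not use were compared next. The members were short genes in coding length, with a median of 549 coding bases against 1365 for expressed NM records. Their coding GC content was lower, at a median of 46.2% against 52.8%. An ATG before the start codon, in the 5′ leader of the principal transcript, was found in 7 members (23.3%), against 51.3% of expressed NM records. A purine stood 3 bases before the start codon (position -3) in 27 of 29 members with enough leader (93.1%), against 86.2% of 11611 expressed NM records. A G directly after the start codon (position 4, counting its A as 1) was present in 13 (44.8%), against 53.2%. Both were present in 11 (37.9%), against 45.7%. The bases around the start codon, ATG in capitals, are shown for the 3 members of highest and the 4 of lowest relative ratio.
UBE2D1: tgacccATGg
UBE2A: cgcgacATGt
UBE2J1: cccaccATGg
UBE2H: gacaccATGt
UBE2G2: ggggccATGg
UBE2O: gcagttATGg
UBE2L6: cccgacATGa
UBE2D1, at the top by ratio, has a c at position -3, as does UBE2C, while UBE2G2, UBE2O and UBE2L6, near the bottom, each have a g there. No position held letters that separated the 3 highest from the 4 lowest. Across the 30 expressed members, the relative ratio had a Spearman's rho of 0.11 and a Pearson's r of 0.23 with mean log2 RPKM, and -0.09 and -0.18 with transcript length. With coding length rho was 0.10 and r was -0.28, of opposite sign. With coding GC they were -0.06 and -0.19, and with the share of sequence held in common with other genes -0.05 and 0.12, again of opposite sign. These describe genes of the same pair of libraries and carry no test.

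The rest of the conjugation pathway is given by 9 lists, of whose 160 entries 158 were found in the table. The interval counts of every list stand beside 31.6% above 0 and 28.3% below 0 among all expressed NM records. The E2s under other symbols were the closest to the UBE2 members, with a median relative ratio of 0.37 over 8 expressed genes and intervals above 0 in 6 and below 0 in 0. Among these, UFC1, the E2 for the modifier UFM1, had 122 RPKM in the RNC-mRNA library and 99.3 RPKM in the mRNA library, at 0.33. CDC34, the cullin-ligase E2 related to UBE2R2, had 76.8 RPKM in the RNC-mRNA library and 70.1 RPKM in the mRNA library, at 0.17. UEVLD was the highest of the list at 0.57 and ATG10, the autophagy E2-like enzyme, the lowest at -0.24. UEVLD, AKTIP (0.42) and TSG101 (0.42) are E2 variants without the catalytic cysteine, so the list median rests in part on inactive relatives. Of the remaining genes, ATG3 lay at 0.42 and BIRC6 at 0.09.

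Upstream in the relay, the 9 expressed activating enzymes had a median of 0.07, with intervals above 0 in 3 and below 0 in 1. UBA1, the main ubiquitin E1, had 104 RPKM in the RNC-mRNA library and 101 RPKM in the mRNA library, at 0.09. SAE1, a subunit of the SUMO E1, was the highest at 0.36 and ATG7 the lowest at -0.40. The 15 expressed genes of ubiquitin and ubiquitin-like proteins had a median of 0.08, with intervals above 0 in 8 and below 0 in 3. UBB, a polyubiquitin gene, had 1292 RPKM in the RNC-mRNA library and 1044 RPKM in the mRNA library, at 0.35, and FAU lay at 0.14. SUMO3 was the highest at 0.71 and ISG15 the lowest at -0.40.

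Downstream, the partners of the abundant UBE2S and UBE2C came first. The 17 expressed subunits and activators of the anaphase-promoting complex had a median of 0.17, with intervals above 0 in 8 and below 0 in 2. CDC20, the activator that recruits mitotic substrates, had 115 RPKM in the RNC-mRNA library and 81.5 RPKM in the mRNA library, at 0.54, within the range of UBE2S and UBE2C. ANAPC10 was the highest at 0.75, ANAPC5 lay at -0.09 and ANAPC2 was the lowest at -0.27. The 20 cullin-RING genes had a median of 0.09, with intervals above 0 in 8 and below 0 in 4, from CUL2 at 0.52 to CUL7 at -0.74, and with TCEB2 at 0.16 and DDB1 at 0.04 the most abundant.

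The 35 RBR and HECT ligases, partners of the UBE2D enzymes and UBE2L3, had a median of 0.12, with intervals above 0 in 9 and below 0 in 7. Both counts fall under the shares of all expressed NM records, 31.6% above 0 and 28.3% below 0. SMURF2 was the highest at 0.74, and the abundant HUWE1 and RBCK1 lay at -0.12 and -0.38. HERC2 was the only gene of the 9 lists at 2-fold or more, with 5.15 RPKM in the RNC-mRNA library and 10.7 RPKM in the mRNA library, at -1.002. Its interval of -1.14 to -0.90 spans the 2-fold limit, so this call rests on the limit itself. Among 16 ligases of DNA damage and chromatin the median was 0.11, with 5 intervals above 0 and 3 below. BARD1 was the highest at 0.65, RNF4 and RING1, the most abundant, lay at 0.26 and 0.20, and FANCL, the ligase that works with UBE2T, was the lowest at -0.49.

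The 18 genes of endoplasmic reticulum-associated degradation had a median of 0.21, with intervals above 0 in 10 and below 0 in 2. DERL1 was the highest at 0.52, VCP and AUP1, the most abundant by mean level, lay at 0.14 and 0.33, and OS9, a lectin of the pathway, was the lowest at -0.62. The 13 SUMO ligases and proteases had a median of 0.10, with 3 intervals above 0 and 3 below, from SENP1 at 0.54 to SENP5 at -0.51, and with PIAS1 at 0.10 among the most abundant. Of the 9 list medians, 8 lay below the 0.32 of the UBE2 members, and every list had genes on both sides of 0. The median of the activating enzymes was -0.0026 when a mean RPKM of at least 5 was required, so its side of 0 depends on that filter. Differences between lists were not tested.

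**Figure D5:**
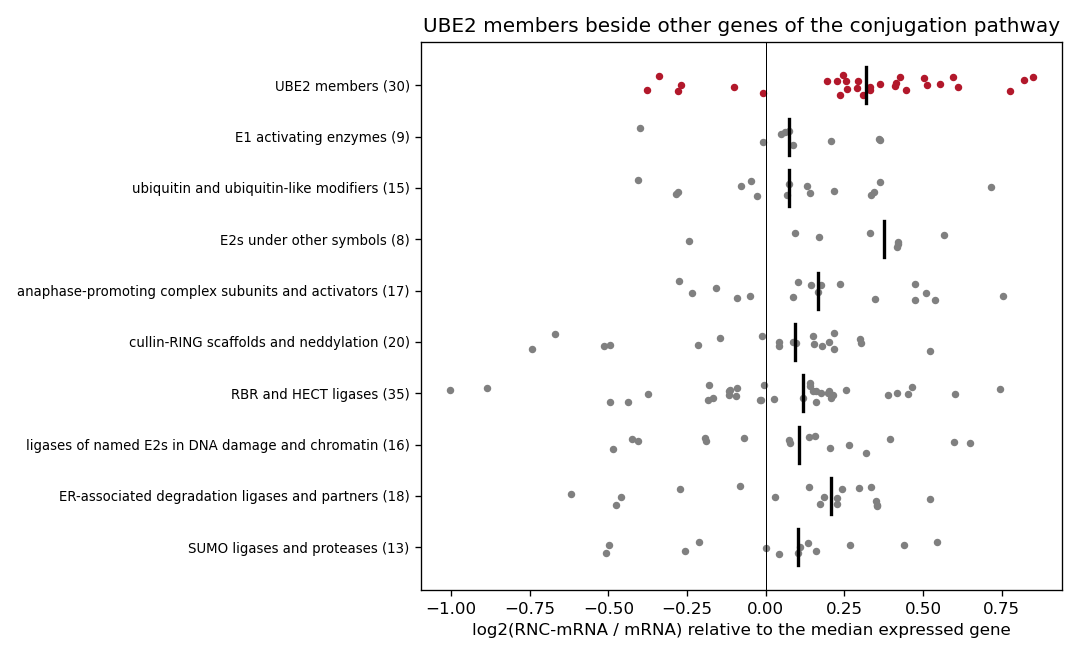
Relative ratio (log2, horizontal axis) of the expressed UBE2 members (red) and of the expressed genes of 9 pathway lists (grey), 1 point per gene, with the number of genes in brackets and the median as a black bar. The bar of the UBE2 members stands at 0.32, and only the E2s under other symbols have a higher one, at 0.37. The E2s under other symbols include variants without the catalytic cysteine.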

How the data were processed

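Polyadenylated RNA from Caco-2 cells was sequenced in 2 libraries, 1 RNC-mRNA and 1 mRNA library. Per the labels' protocols, RNA was fragmented by heat, copied from random primers and amplified by PCR, and no molecular identifiers or strand-preserving step are named. The authors deposited RPKM values, 1 RefSeq record per gene symbol, per the file headers. The genome build was hg19, per the submitters' processing notes. The aligner, the counter and the treatment of multiply mapping reads are not given in the sources used here.

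Library totals were recovered by searching for the whole number that gave whole reads in the most genes of known reference length, within the rounding of 7 printed digits: 11083302 for the RNC-mRNA library (2274 genes, next best unrelated total 104) and 9640364 for the mRNA library (2525 genes, next best 167). Intervals rest on the smallest whole read numbers that fit a record's pair of RPKM values, with a relative error of 2e-07 allowed beyond rounding. They sum to 86.9% of the RNC-mRNA total and 86.6% of the mRNA total. PCR copies are not independent molecules, so the intervals hold counting error alone. The recovery was tested on simulated data.

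With 1 library per group there is no test, p-value or SD, and a rule of size of 2-fold was used. A pseudocount of 0.1 RPKM was added, which understates ratios of weak genes, and records with a mean RPKM under 1 were left out of medians. The UBE2 members were named, except that some results are not reported here; counts, medians and sums include them. From each pathway list the 2 genes of highest mean RPKM, those of highest and lowest ratio and any past 2-fold were named. All genes of the E2s under other symbols were named as well. The members and lists were chosen with earlier results of these data known. Coding sequence, start codons, identity (global alignment) and 32-base stretches shared between transcripts came from GENCODE release 29 (GRCh38). Python 3.11.15, numpy 2.4.6, pandas 2.3.3, scipy 1.17.1, Biopython 1.88 and matplotlib 3.10.9 were used. Alternatives tried were other pseudocounts, scalings and filters, leaving out members, and another size rule.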

Additional observations from a re-analysis of the deposited data

How the results depend on the processing

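The median relative ratio of the UBE2 members stayed above 0 under every alternative run, between 0.25 and 0.43. It was 0.43 with no filter on low values, where the median of all records moved to -0.14 on the log2 scale, against -0.04 with the filter. Under the 1.5-fold rule of size, 5 members lay above the median expressed record, against 0 at 2-fold. The other counts of members, and 263 of 268 single-member values, stayed within their limits (20 to 24 members with an interval above 0, and 3 or 4 below), and no member whose interval excludes 0 changed sign. With reads taken at the length nearest a reference transcript, an alternative chosen after seeing the data, 21 members had an interval above 0 and 4 below. Those reads sum to 111.7% of the total in each library, more than the library holds, so intervals from them can be too narrow. Without the 4 expressed members that share over 10% of their sequence with other genes of the table, the median was 0.32. UBE2S and UBE2E3, which share sequence with annotated genes outside the table, were kept in that set. No paired analysis was possible because each group has 1 library. That single library per group limits every ratio: a difference between cultures or preparations cannot be told apart from one between ribosome-bound and total RNA. Depth limits UBE2W and UBE2D4 most, which rest on at least 165 and 189 reads in the RNC-mRNA library and 159 and 142 in the mRNA library.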
